A study of Rattus norvegicus with 6 samples.

Results

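The 9 immediate early genes FOS, FOSB, JUN, JUNB, JUND, EGR1, ATF3, IER2 and MYC were followed in messenger RNA from isolated rat glomeruli, the capillary tufts in which the kidney filters blood. They were chosen by name, with earlier results of these data known, as the Ensembl genes to which the authors' tables give these human symbols. Each symbol belonged to 1 gene ID, so the set holds 9 of the 26319 genes in the count table, and all 9 passed the filter on low counts that left 13426 genes for testing. Immediate early genes are transcribed within minutes of a stimulus, because the factors that switch them on are already present and need only be phosphorylated. FOS and JUN proteins pair to form the transcription factor AP-1, while EGR1, ATF3 and MYC are transcription factors of other families. Growth factors, angiotensin II, stretch and wounding all induce these genes, and so can the cutting, sieving and warming of a fresh tissue, which makes them a common check on how cells or tissue fragments were isolated.

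There were 6 libraries from Sprague Dawley rats, 2 for each of 3 groups. Wild-type animals (WT) carried the label vehicle, as did the first group of AT1R Tg animals, which have a transgene for the angiotensin II type 1 receptor. The second AT1R Tg group received AC1903, which blocks the cation channel TRPC5. The WT animals were 20.4 weeks (replicate 1) and 21.9 weeks (replicate 2) of age. The AT1R Tg vehicle animals were 20.4 and 17.4 weeks of age, and the AT1R Tg AC1903 animals 23.0 and 20.4 weeks. In this rat model the transgene is known to be expressed in podocytes under the nephrin promoter, although the labels name no promoter. The labels do not describe how the glomeruli were isolated, how long that took or on which day each rat was handled. The ages differ within each group, so its libraries come from different rats.

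The upstream sequences of 4 members are shown because they hold, or lack, the elements through which immediate early genes are classically induced, and because these genes followed different patterns over the libraries. JUNB and IER2 had the nearest profiles of the set by the distance given below, JUND stood higher in both transgenic groups than in WT and EGR1 lower. The changes of JUND and EGR1 did not pass the test between groups. Whether the elements bear on the levels was not tested. RefSeq entries on the build GRCr8 matched 5 of the 9 members, and FOS, JUN, ATF3 and MYC were not matched. Each line gives the 250 bases before the annotated start, 5′ to 3′ on the gene's strand, with matches on either strand in capitals. The motifs searched were TGACGT, the core of the cyclic AMP response element, the full palindrome TGACGTCA that contains it, the AP-1 site TGANTCA, the CArG box of the serum response element, GCGNGGGCG, the site of EGR proteins, TATAAA, and the CCAAT box, CCAAT, which is not capitalised.
Junb, chr19:40080876-40081125, plus strand: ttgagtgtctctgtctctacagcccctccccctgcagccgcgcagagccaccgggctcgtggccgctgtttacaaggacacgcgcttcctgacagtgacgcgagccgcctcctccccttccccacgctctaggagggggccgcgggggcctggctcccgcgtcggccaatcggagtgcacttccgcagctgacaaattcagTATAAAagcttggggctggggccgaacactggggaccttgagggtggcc
Ier2, chr19:40399123-40399372, plus strand: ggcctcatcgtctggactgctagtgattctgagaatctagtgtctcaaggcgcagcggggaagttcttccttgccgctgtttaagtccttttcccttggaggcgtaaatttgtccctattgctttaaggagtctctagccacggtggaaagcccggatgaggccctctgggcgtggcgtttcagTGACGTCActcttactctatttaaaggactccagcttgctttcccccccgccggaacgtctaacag
Jund, chr16:18769772-18770021, minus strand: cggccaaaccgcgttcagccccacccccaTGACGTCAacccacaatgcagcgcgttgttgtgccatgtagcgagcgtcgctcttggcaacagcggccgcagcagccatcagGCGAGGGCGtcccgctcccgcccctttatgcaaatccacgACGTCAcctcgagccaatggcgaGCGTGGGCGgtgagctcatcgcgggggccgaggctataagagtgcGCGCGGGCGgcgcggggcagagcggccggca
Egr1, chr18:26736828-26737077, plus strand: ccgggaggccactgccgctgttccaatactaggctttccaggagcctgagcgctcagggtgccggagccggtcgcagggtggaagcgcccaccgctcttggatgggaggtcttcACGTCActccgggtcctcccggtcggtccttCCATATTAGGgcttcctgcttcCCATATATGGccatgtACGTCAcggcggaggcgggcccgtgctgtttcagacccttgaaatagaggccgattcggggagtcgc

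In these windows Egr1 held 2 CArG boxes, 105 and 83 bases before the start, and 2 TGACGT cores. Ier2 held 1 full TGACGTCA palindrome 66 bases before the start. Jund held 1 palindrome 221 bases before the start, a further TGACGT core at 99 bases, and 3 EGR sites at 139, 76 and 31 bases. The Junb window held a TATAAA box 49 bases before the start and a CCAAT box 85 bases before it, and none of the other motifs. A CCAAT box also lay 86 bases before the start of Jund and 228 before that of Egr1. Of the 33469 promoter windows in the table, 1.5% held a CArG box, 1.59% the TGACGTCA palindrome, 6.95% the TGACGT core, 4.29% the EGR site, 6.34% the AP-1 site, 12.9% TATAAA and 34% CCAAT. The AP-1 site was in none of these 4 windows. The Fosb window, the fifth matched, is not printed because TATAAA, 180 bases before the start on the opposite strand, was its only match. A match describes letters in the reference sequence and says nothing of binding in these rats.

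The libraries held 12325515 to 36026772 expected counts, with both WT libraries deeper than the other 4. Mitochondrially encoded genes took 22.3% to 40.5% of the counts, the most in AT1R Tg vehicle replicate 2. All 10 podocyte markers had counts in every library and summed to 9117 to 17245 CPM (counts scaled to a common library size), and all 10 glomerular endothelial markers did so too, with sums of 5210 to 8072 CPM. The defining genes of the labelled tissue were thus present. Presence alone does not single out glomeruli, since tubule and macrophage markers also had counts in every library. Proximal tubule cells, which can remain attached to isolated glomeruli, gave 10 tested markers that were also above 0 throughout. Levels are CPM on library sizes normalised by edgeR's TMM method, and differences between groups are log2 changes from edgeR's quasi-likelihood test with its Benjamini-Hochberg adjusted p over all 13426 genes. In bulk tissue a lower number of cells of a type and less RNA per cell cannot be told apart. With 2 libraries against 2, no permutation of the samples can give a p below 0.333.

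**Figure D1:**
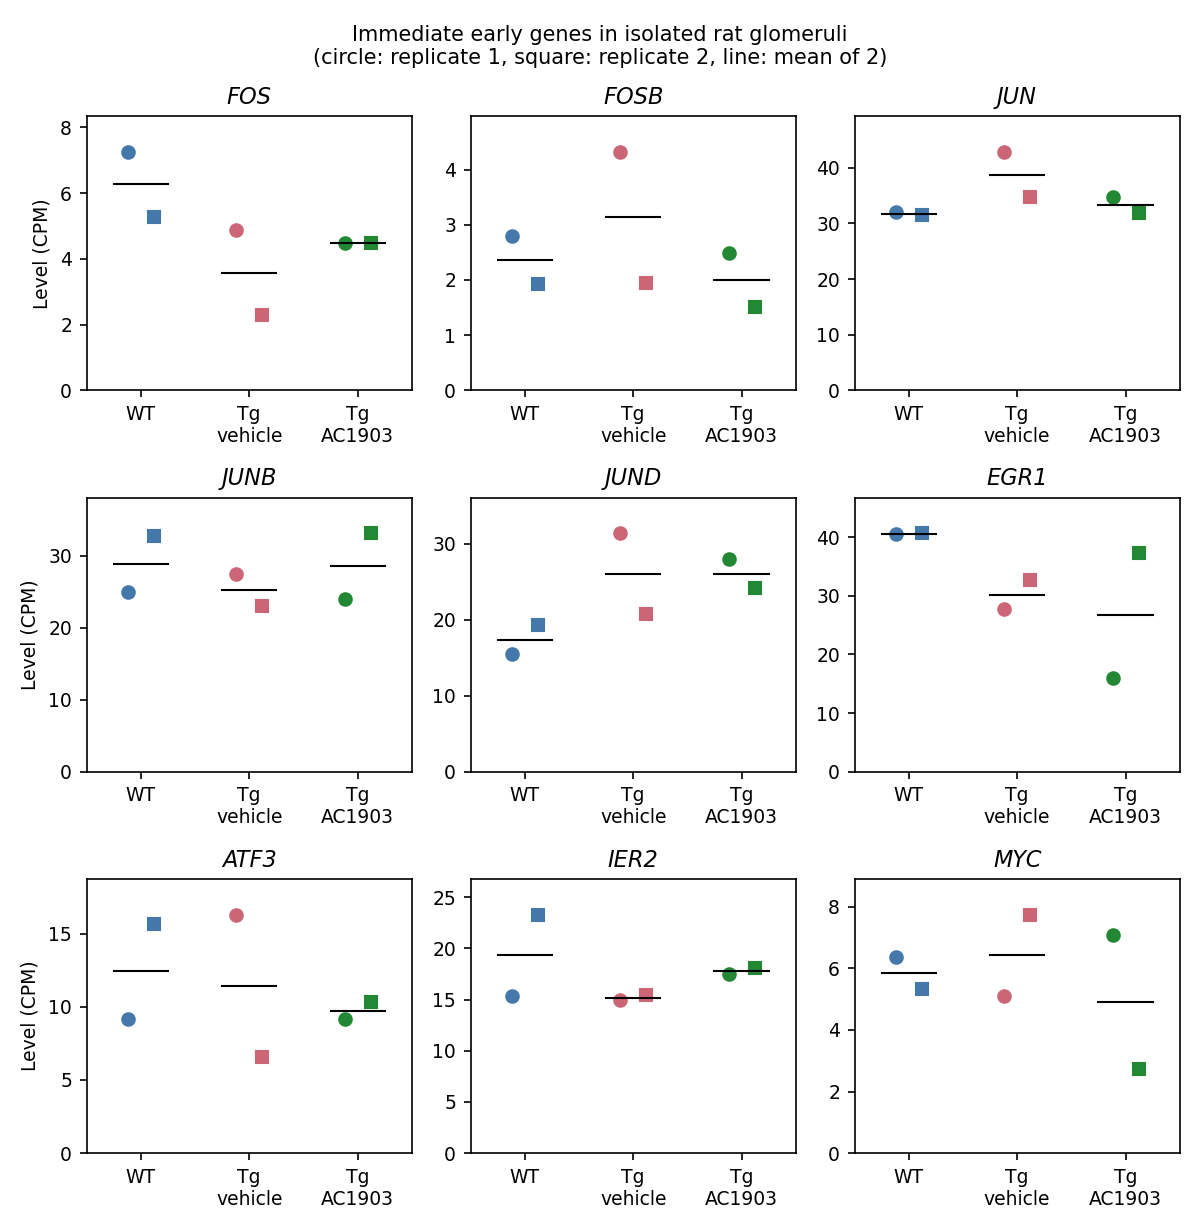
Level in CPM of each of the 9 immediate early genes (vertical axes from 0) in WT, AT1R Tg vehicle and AT1R Tg AC1903 glomeruli, with a circle for replicate 1, a square for replicate 2 and a line at the mean of both. JUND is higher in all 4 transgenic libraries than in WT, yet its vehicle libraries lie 10.6 CPM apart, more than the 8.66 CPM between the farthest group means. Of the 9 genes FOS alone has a larger gap between group means than within a group. Gaps between single libraries vary more than gaps between means, and the share over all genes was not computed.

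None of the 9 genes passed the threshold of 0.05 for the adjusted p in any of the 3 comparisons, and the closest was JUND, which stood higher in both transgenic groups than in WT, by a log2 change of 0.58 in each. FOS and EGR1 stood lower in both transgenic groups than in WT, without passing the test. In each comparison some members stood higher and some lower. Many of these changes were smaller than their SE, so the mixed signs cannot show whether the members moved together. For all 9, JUND included, the largest log2 difference between the rats of a group exceeded the largest fitted change between groups. For JUND it did so narrowly, at 0.593 within vehicle beside 0.584 for vehicle against WT. A difference between single libraries varies more than one between means of 2, and the share over all genes was not computed. The excess is therefore not read as a trait of these members.

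FOS (ENSRNOG00000008015), the partner of JUN proteins in AP-1 and the usual marker of recent stimulation, was present at a few CPM only. It stood at 7.25 and 5.29 CPM in WT, 4.88 and 2.28 CPM in AT1R Tg vehicle, and 4.49 and 4.48 CPM in AT1R Tg AC1903, from 28 to 202 counts a library. Both WT libraries lay above all 4 transgenic libraries, and vehicle replicate 2 lay lowest. The log2 change of vehicle against WT was -0.80 with SE 0.43 (edgeR adjusted p = 0.535), and its 95% interval in fold terms ran from 0.29 to 1.14. It was -1.46 without vehicle replicate 1 and -0.35 with the proximal tubule marker level as a covariate, a fit in which it did not pass. The proximal tubule markers summed to 1245 to 1824 CPM in WT and 2520 to 4609 CPM in the transgenic libraries. That covariate therefore largely follows genotype, here and for the genes below. AC1903 against vehicle gave 0.32 with SE 0.44 (edgeR adjusted p = 0.858), and AC1903 against WT gave -0.48 with SE 0.43 (edgeR adjusted p = 0.704).

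FOSB (ENSRNOG00000046667), a second FOS family member that accumulates on repeated stimulation, had the fewest counts of the set, 19 to 78 a library. It stood in WT at 2.80 and 1.92 CPM, in vehicle at 4.32 and 1.95 CPM, and with AC1903 at 2.5 and 1.52 CPM. Vehicle replicate 1 lay highest and AC1903 replicate 2 lowest, and all 3 groups overlapped. The log2 changes were 0.42 with SE 0.56 for vehicle against WT, -0.65 with SE 0.58 for AC1903 against vehicle and -0.23 with SE 0.58 for AC1903 against WT. In GRCr8 the gene overlaps LOC103691049, and ATF3 overlaps Garin4, so reads of these pairs may have been shared where the counting ignored strand, and no source states how strand was counted.

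The JUN family supplies the partners of FOS proteins in AP-1. JUN (ENSRNOG00000026293) was the steadiest member, in WT at 32.0 and 31.4 CPM, in vehicle at 42.8 and 34.7 CPM, and with AC1903 at 34.8 and 31.9 CPM. Vehicle replicate 1 was high, and the other 5 libraries lay between 31.4 and 34.8 CPM. Both vehicle libraries lay above both WT libraries, by a log2 change of 0.29 with SE 0.17 (edgeR adjusted p = 0.575), and the interval of that change reached a fold of 1.60 at most.

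JUNB (ENSRNOG00000042838), which often restrains JUN, stood in WT at 24.9 and 32.8 CPM, in vehicle at 27.5 and 23.0 CPM, and with AC1903 at 24.0 and 33.1 CPM. WT replicate 2 and AC1903 replicate 2 lay highest, vehicle replicate 2 lowest, and the groups overlapped in every comparison. Its log2 changes were -0.19 with SE 0.23 for vehicle against WT, 0.18 with SE 0.23 for AC1903 against vehicle and -0.02 with SE 0.23 for AC1903 against WT.

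JUND (ENSRNOG00000019568), the JUN protein that is present in resting cells and depends least on acute stimuli, stood in WT at 15.5 and 19.3 CPM, in vehicle at 31.4 and 20.8 CPM, and with AC1903 at 27.9 and 24.1 CPM. All 4 transgenic libraries lay above both WT libraries, and vehicle replicate 2 was the nearest of them to WT. The group levels were 17.4 ± 2.67 CPM in WT, 26.1 ± 7.49 CPM in vehicle and 26.0 ± 2.69 CPM with AC1903 (mean ± SD, n = 2). The log2 change was 0.58 with SE 0.24 for vehicle against WT (unadjusted p = 0.0383, edgeR adjusted p = 0.370) and 0.58 with SE 0.24 for AC1903 against WT (unadjusted p = 0.0392, edgeR adjusted p = 0.434). These comparisons share the WT libraries. Between AC1903 and vehicle the change was -0.0023 with SE 0.24, with a fold interval of 0.68 to 1.46. In the authors' deposited table the log2 change of JUND in vehicle against WT was 0.61 with an adjusted p of 0.299, the smallest of the 9 members there. Without vehicle replicate 1 the change against WT was 0.25, without vehicle replicate 2 it was 0.85, and with the proximal tubule marker level as a covariate 1.40. The proximal tubule markers summed higher in all 4 transgenic libraries than in WT, so the fit with them cannot well separate tubule content from genotype. JUND did not pass in it.

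EGR1 (ENSRNOG00000019422), a zinc finger factor known to be switched on through serum response elements, stood at 40.6 CPM in both WT libraries. It stood at 27.7 and 32.6 CPM in vehicle and at 16.1 and 37.3 CPM with AC1903. All 4 transgenic libraries lay below WT, while the AC1903 libraries held the lowest value of all and the highest of the transgenic ones. The log2 change was -0.43 with SE 0.33 for vehicle against WT (edgeR adjusted p = 0.679), -0.18 with SE 0.33 for AC1903 against vehicle (edgeR adjusted p = 0.899) and -0.60 with SE 0.33 for AC1903 against WT (edgeR adjusted p = 0.520). The last value was -1.35 without AC1903 replicate 2 and -0.13 without AC1903 replicate 1, and no adjusted p passed in either case.

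ATF3 (ENSRNOG00000003745), a stress-induced factor of the ATF and CREB family, stood in WT at 9.19 and 15.6 CPM, in vehicle at 16.3 and 6.59 CPM, and with AC1903 at 9.15 and 10.3 CPM. The vehicle group held both the highest and the lowest of the 6 values. Its group differences were small beside that, with log2 changes of -0.12 with SE 0.42 for vehicle against WT, -0.24 with SE 0.43 for AC1903 against vehicle and -0.35 with SE 0.43 for AC1903 against WT.

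IER2 (ENSRNOG00000047811), a small nuclear protein induced together with FOS in many cells, stood in WT at 15.4 and 23.3 CPM, in vehicle at 14.9 and 15.5 CPM, and with AC1903 at 17.5 and 18.1 CPM. WT replicate 2 stood apart, and the other 5 libraries lay between 14.9 and 18.1 CPM. Both AC1903 libraries lay above both vehicle libraries, with a log2 change of 0.23 and SE 0.24 (edgeR adjusted p = 0.802).

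MYC (ENSRNOG00000042556), the growth-promoting factor that pairs with MAX, stood in WT at 6.35 and 5.31 CPM, in vehicle at 5.10 and 7.73 CPM, and with AC1903 at 7.07 and 2.72 CPM. AC1903 replicate 2 lay lowest, and the other 5 libraries overlapped across groups. The log2 changes were 0.14 with SE 0.46 for vehicle against WT, -0.39 with SE 0.48 for AC1903 against vehicle and -0.25 with SE 0.47 for AC1903 against WT.

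**Figure D2:**
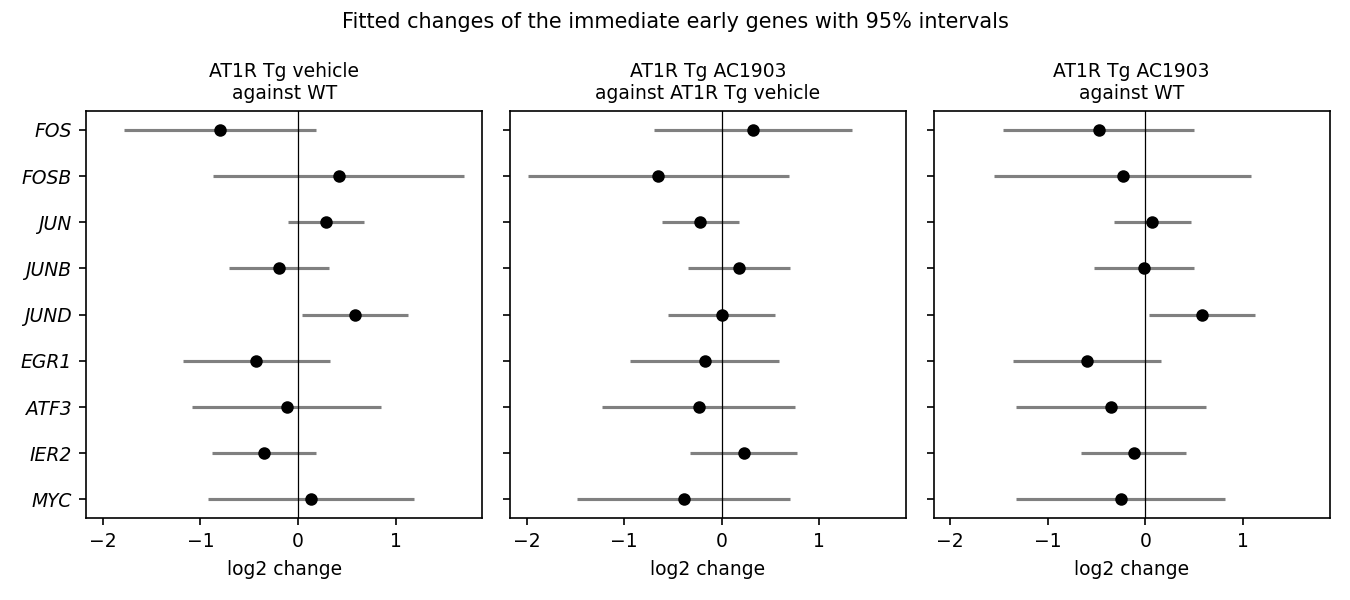
Fitted log2 changes (horizontal axes) of the 9 immediate early genes in the 3 comparisons, with points for the estimate and lines for the 95% interval from edgeR's quasi-likelihood fit, before adjustment for multiple tests. The JUND intervals against WT lie just above 0, at 0.04 to 1.13 for both transgenic groups, and every other interval includes 0.

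Each count of members is given beside the share of all genes. In vehicle against WT, 0 of 9 members were called by edgeR, where 0.0745% of all genes were, and 1 of 9, JUND, had an unadjusted p under 0.05, where 11.9% of all genes did. DESeq2 called 0 of 9 against 4.13% of all genes, limma-voom called 0 of 9 against 0.0521%, and 0 of 9 were called in the authors' deposited table, where 4.42% of its genes were. The groups did not overlap for FOS, JUN, JUND and EGR1, which is 4 of 9 beside 44% of all genes tested. The members' median log2 change was -0.12, with 4 higher and 5 lower, beside a median of -0.03 over all genes.

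For AC1903 against vehicle edgeR called 0 of 9 members and 0% of all genes, and 0 of 9 had an unadjusted p under 0.05, beside 8.12% of all genes. DESeq2 called 0 of 9 and 0.499% of all genes, and limma-voom 0 of 9 and 0%. The authors' deposited table called 0 of 9, beside 0.378% of its genes. Only IER2 of the 9 had groups without overlap, beside 38.3% of all genes. The median over the members was -0.18, with 3 higher and 6 lower, beside -0.02 over all genes.

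For AC1903 against WT edgeR called 0 of 9 members and 0.0372% of all genes, and JUND was the 1 member with an unadjusted p under 0.05, beside 11.1% of all genes. DESeq2 called 0 of 9 and 1.35% of all genes, and limma-voom 0 of 9 and 0.0521%. FOS, JUND and EGR1 had groups without overlap, 3 of 9 beside 47.7% of all genes. The median over the members was -0.23, with 2 higher and 7 lower, beside 0.0019 over all genes. In all 3 comparisons the members' share of calls and of groups without overlap lay near or below that of all genes.

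The differences between rats of a group were then set side by side, since an effect of tissue handling could show there. They are log2 ratios of replicate 2 over replicate 1 and have no test. In AT1R Tg vehicle, FOS, FOSB and ATF3 stood more than 2-fold lower in replicate 2, and JUND, JUN and JUNB were lower as well, while EGR1, IER2 and MYC were not. ATF3 was 2.47-fold higher in replicate 1 than in replicate 2, with an exact 95% interval for counting error of 1.91 to 3.22. FOSB was 2.21-fold higher (1.36 to 3.71) and FOS 2.14-fold higher (1.36 to 3.45). MYC went the other way, at 1.52-fold higher in replicate 2 (1.11 to 2.09). The 3 of 9 members over 2-fold apart compare with 12.1% of all genes in these libraries, and with 9.04% of the 6860 genes whose mean level lies in the members' range of 2.5 to 34.6 CPM.

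In AT1R Tg AC1903 the genes that differed were others. EGR1 was 2.33-fold higher in replicate 2 (1.96 to 2.76), and MYC was 2.60-fold higher in replicate 1 (1.73 to 3.99). FOS stood at 4.49 and 4.48 CPM in these libraries, from 54 and 56 counts. The counting interval of its ratio of replicate 1 over replicate 2 was 0.68 to 1.49, and an effect of handling was not tested. The 2 of 9 members over 2-fold apart compare with 9.84% of all genes and 6.36% of those in the members' range. In WT no member was over 2-fold apart, beside 5.39% of all genes and 3.47% of those in range. The largest WT difference was that of ATF3, 1.70-fold higher in replicate 2 (1.47 to 1.98), followed by IER2 at 1.52-fold (1.35 to 1.71), while FOS was 1.37-fold higher in replicate 1 (1.12 to 1.68).

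**Figure D3:**
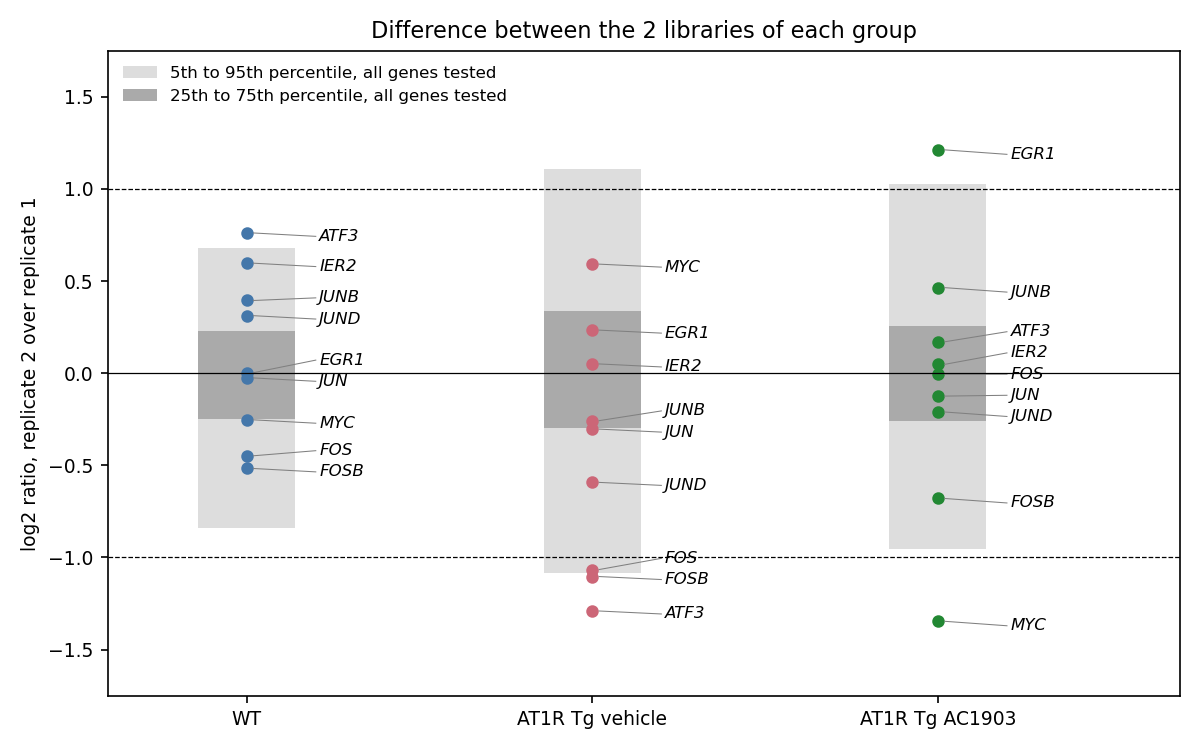
Log2 ratio of replicate 2 over replicate 1 (vertical axis) for each of the 9 immediate early genes in each group, beside grey bands for all 13426 genes tested, with dashed lines at a 2-fold difference. FOS, FOSB and ATF3 lie below the lower dashed line in AT1R Tg vehicle, and EGR1 and MYC lie beyond opposite dashed lines in AT1R Tg AC1903.

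No library was high or low for the whole set. Vehicle replicate 1 held the highest value of 4 members, FOSB, JUN, JUND and ATF3, but the lowest of IER2. Vehicle replicate 2 held the lowest value of FOS, JUNB and ATF3 and the highest of MYC. The number of members above their own mean ran from 3 of 9 in vehicle replicate 2 to 6 of 9 in vehicle replicate 1. The summed level of the 9 genes stayed between 143 and 176 CPM, in WT at 154 and 176 CPM, in vehicle at 175 and 145 CPM, and with AC1903 at 143 and 164 CPM, so the groups overlapped in the sum as well. JUN, JUNB and EGR1 make up most of that sum, and it hardly follows FOS and FOSB.

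The spread within groups differed widely among the members. The pooled SD of log2 CPM was 0.13 for JUN, 0.25 for IER2, 0.27 for JUNB and 0.29 for JUND, beside a median of 0.26 over all genes tested. It was 0.47 for FOS, 0.50 for EGR1, 0.57 for FOSB, 0.61 for MYC and 0.62 for ATF3. All of these but EGR1 are the members with the fewest counts. Among genes in the members' range of level, FOS, EGR1, FOSB, MYC and ATF3 lay at percentiles 83.0, 85.4, 89.8, 91.4 and 91.8 of this SD. IER2, JUNB and JUND lay at 44.0, 50.6 and 54.9, and JUN at 13.5. The part of counting error in these spreads was not tested.

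Likeness between profiles was measured as the root mean square difference of log2 CPM, each centred on its own mean, over the 6 libraries. JUNB and IER2 were nearest, at 0.17, and both lie on chromosome 19 of GRCr8. JUN and JUND followed at 0.25. This distance is also small where both genes vary little, as JUN, JUNB, JUND and IER2 did beside the other members. The farthest were EGR1 and MYC at 0.78, and FOS lay 0.55 from FOSB. Of 8515 other genes with a mean of at least 10 CPM, the nearest to FOS were SLC19A2, a thiamine transporter, at 0.12, TBC1D9 at 0.16, and C1QTNF1, SNX7 and CD55, a complement regulator, at 0.20 each, where the median gene lay at 0.51. SLC19A2 stood in WT at 77.2 and 64.5 CPM, in vehicle at 59.7 and 31.9 CPM, and with AC1903 at 48.9 and 57.2 CPM. The mean profile of the 9 members was nearly flat, and the genes nearest to it, DDX50, MORF4L1, SLC25A24, PALMD and PLOD3, were at 0.02 to 0.04.

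A list of 30 other immediate early genes, of which 28 were tested and EGR3 and EGR4 were not, also had 0 members called by edgeR or DESeq2 in any comparison. Its median log2 change was -0.14 for vehicle against WT, with 21 of 28 lower, -0.04 for AC1903 against vehicle, with 15 lower, and -0.23 for AC1903 against WT, with 23 lower. In that order 7, 13 and 5 of the 28 stood higher, beside 46.6%, 47.9% and 50.2% of all genes. The medians over all genes were -0.03, -0.02 and 0.0019. At an unadjusted edgeR p under 0.05 there were 1, 1 and 3 of 28, beside 11.9%, 8.12% and 11.1% of all genes. ZFP36, which destabilises cytokine messages, stood in WT at 124 and 180 CPM, in vehicle at 77.4 and 103 CPM, and with AC1903 at 101 and 86.5 CPM. Both WT libraries lay above all transgenic ones, with a log2 change of -0.76 and SE 0.23 for vehicle against WT (edgeR adjusted p = 0.212). ARC stood in WT at 73.8 and 91.1 CPM, in vehicle at 99.1 and 52.6 CPM, and with AC1903 at 49.9 and 48.9 CPM, with a log2 change of -0.74 for AC1903 against WT (edgeR adjusted p = 0.400). With no filter on low counts ZFP36 and ARC passed, at edgeR adjusted p of 0.0234 and 0.0391 in these comparisons. The ZFP36 change was -0.46 without WT replicate 2, and the ARC change 0.029 with the proximal tubule marker level as a covariate. DUSP5, a phosphatase of ERK, stood at 8.49 and 5.62 CPM in vehicle and 11.9 and 16.9 CPM with AC1903, a log2 change of 1.03 with SE 0.32 (edgeR adjusted p = 0.549).

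Within groups these genes also varied in different libraries, and the genes named for this, other than NR4A1 and the members, were picked after their values were seen. In WT 21 of 28 stood higher in replicate 2, among them the nuclear receptor NR4A1 at 37.9 and 86.7 CPM and the phosphatase DUSP1 at 155 and 312 CPM. Another 7 stood lower, among them TIPARP at 30.2 and 19.4 CPM. The median log2 ratio was 0.23, beside 0.0035 over all genes. In vehicle 19 of 28 stood lower in replicate 2, among them NR4A3 at 7.01 and 1.95 CPM and CTGF, a matrix-associated protein, at 987 and 378 CPM. Another 9 stood higher, among them EGR2 at 0.14 and 0.65 CPM, from 2 and 8 counts. The median log2 ratio was -0.22, beside 0.019 over all genes. With AC1903, 13 stood higher and 15 lower in replicate 2, and SOCS3, a feedback inhibitor of cytokine signalling, went from 5.57 to 1.36 CPM and IER5 from 9.15 to 2.80 CPM. Vehicle replicate 1 was thus high for FOSB, ATF3, NR4A3 and CTGF, and WT replicate 2 for IER2, NR4A1 and DUSP1.

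**Figure D4:**
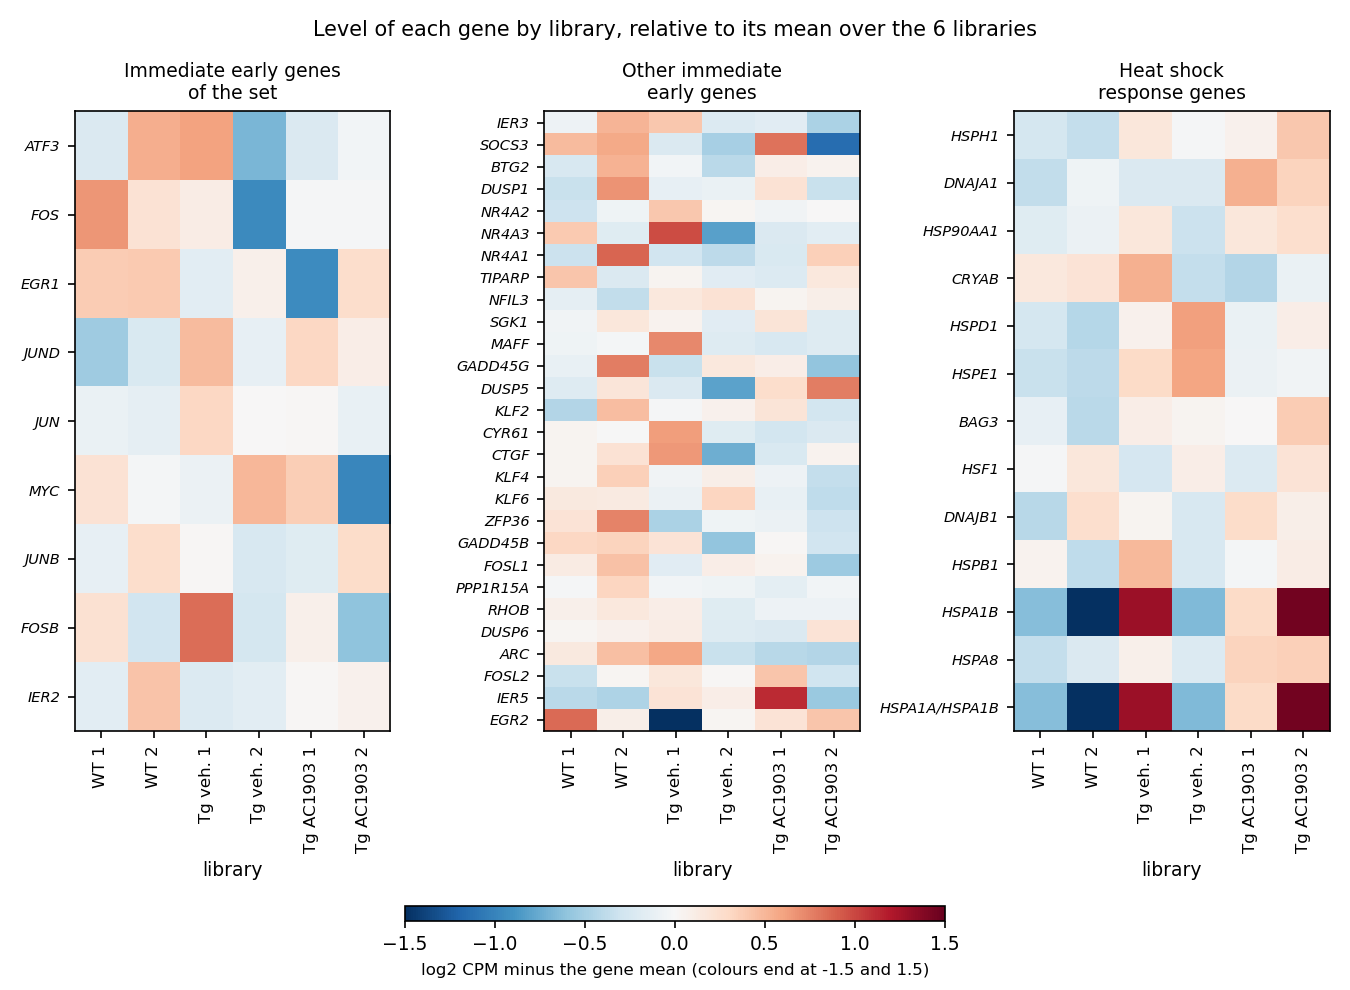
Log2 CPM minus the mean of each gene over the 6 libraries (colour, red above and blue below the mean) for the 9 immediate early genes of the set, 28 other immediate early genes and 13 heat shock gene IDs, with libraries in columns. No column is of 1 colour throughout a panel, and the HSPA1A and HSPA1B rows differ most, from 4.26 to 39.3 CPM.

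Heat shock genes, which respond to unfolded protein and to warming, were given beside the set because isolation can induce them too. Of 13 gene IDs tested, 2 hold the same counts and are taken once, which leaves 12 measurements, and edgeR called 0 in each comparison. DESeq2 called HSPD1 and HSPE1, the chaperonin pair of mitochondria, higher in vehicle than in WT, and HSPA8 and DNAJA1, a constitutive cytosolic chaperone and its partner, higher with AC1903 than in WT. Over all genes it called 4.13% and 1.35% in these comparisons. At an unadjusted edgeR p under 0.05, 3 of 12 were higher in vehicle against WT, 2 higher and 1 lower in AC1903 against vehicle, and 5 higher in AC1903 against WT. Over all genes the shares in either direction were 11.9%, 8.12% and 11.1%. The median log2 change over the 12 was 0.27, 0.15 and 0.34 in that order.

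The inducible chaperone genes HSPA1A and HSPA1B were carried by 2 gene IDs whose counts were the same in every library, as can happen when reads are divided between near-identical copies, so they count as 1 measurement. That value stood in WT at 9.15 and 4.26 CPM, in vehicle at 35.1 and 9.03 CPM, and with AC1903 at 17.6 and 39.3 CPM. It was high in vehicle replicate 1 and AC1903 replicate 2, and vehicle replicate 2 lay within the WT range. AC1903 against WT gave a log2 change of 2.09 with SE 0.65 (edgeR adjusted p = 0.360, and 0.00015 with no filter on low counts). It was 1.39 without AC1903 replicate 2, 1.63 without WT replicate 2 and 2.73 without WT replicate 1, none past the threshold. HSPE1 stood at 72.8 and 69.4 CPM in WT and 111 and 138 CPM in vehicle, with a log2 change of 0.81 and SE 0.16 (edgeR adjusted p = 0.165, DESeq2 adjusted p = 0.00167). HSPD1 stood at 246 and 220 CPM in WT and 310 and 454 CPM in vehicle (edgeR adjusted p = 0.216, DESeq2 adjusted p = 0.0368). With no filter on low counts, and without vehicle replicate 1, both passed in edgeR. Without vehicle replicate 2 the log2 change was 0.41 for HSPD1 and 0.65 for HSPE1, with age as a covariate 0.39 and 0.66, and with the proximal tubule marker level as a covariate 0.021 and 0.45, and neither passed in these 3 fits. Both were highest in vehicle replicate 2, the library with the largest mitochondrially encoded share, 40.5%, and the part of that share in their level was not tested. DNAJA1 stood at 186 and 187 CPM in vehicle and 314 and 273 CPM with AC1903, a log2 change of 0.65 with SE 0.17 (edgeR adjusted p = 0.539).

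Of the 19 kinases and factors that act upstream of immediate early genes, 0 were called by edgeR or DESeq2, and 0, 3 and 1 had an unadjusted edgeR p under 0.05 in vehicle against WT, AC1903 against vehicle and AC1903 against WT. Over all genes the shares at that threshold were 11.9%, 8.12% and 11.1%. SRF, which binds the CArG box, stood in WT at 82.5 and 105 CPM, in vehicle at 93.2 and 68.2 CPM, and with AC1903 at 63.2 and 67.9 CPM, with a log2 change of -0.52 and SE 0.20 for AC1903 against WT (edgeR adjusted p = 0.412), and -0.013 with the proximal tubule marker level as a covariate. CREB1, which binds the cyclic AMP response element, stood at 42.9 and 42.3 CPM in vehicle and 55.9 and 60.6 CPM with AC1903 (log2 change 0.45, SE 0.17, edgeR adjusted p = 0.602). RPS6KA3, a kinase downstream of ERK, stood at 67.9 and 73.7 CPM in vehicle and 117 and 97.2 CPM with AC1903 (log2 change 0.60, SE 0.16, edgeR adjusted p = 0.539). Of 7 tested partners and antagonists of MYC, 0 were called by either tool. The 1 case with an unadjusted edgeR p under 0.05 was MXD4 in AC1903 against vehicle, where 8.12% of all genes had one. MXD4, which competes with MYC for MAX, stood at 50.5 and 34.1 CPM in vehicle and 68.5 and 60.2 CPM with AC1903, a log2 change of 0.60 with SE 0.21 (edgeR adjusted p = 0.576), or 0.28 with age as a covariate. MAX itself stood in WT at 60.8 and 65.8 CPM, in vehicle at 60.9 and 62.1 CPM, and with AC1903 at 58.9 and 48.8 CPM.

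Cell type markers differed between the same libraries. In AT1R Tg vehicle, where FOS, FOSB and ATF3 were lower in replicate 2, the 10 podocyte markers summed to 17245 CPM in replicate 1 and 9117 CPM in replicate 2, all 10 of them lower in replicate 2. The 10 proximal tubule markers went the other way, at 2520 and 4609 CPM. In AT1R Tg AC1903, where EGR1 and MYC differed, the podocyte sums were 10249 and 13558 CPM, with all 10 markers higher in replicate 2. All 10 glomerular endothelial markers were lower there, with sums of 8072 and 5833 CPM, beside 7300 and 7418 CPM in WT and 5210 and 6118 CPM in vehicle. The proximal tubule sums were 2582 and 2668 CPM. The 10 macrophage and monocyte markers summed to 366 and 879 CPM with AC1903, of which LYZ alone gave 215 and 661 CPM. Of these markers 8 were higher in replicate 2 and 2 lower. In WT the podocyte sums were 15822 and 13569 CPM, the proximal tubule sums 1824 and 1245 CPM and the macrophage sums 251 and 426 CPM, beside 233 and 303 CPM in vehicle. Mesangial and smooth muscle markers, 6 tested, summed to 788 and 878 CPM for WT, 755 and 608 CPM for vehicle and 554 and 593 CPM with AC1903. Loop, distal tubule and collecting duct markers, 8 tested, summed to 400 to 446 CPM in WT, 447 to 452 CPM in vehicle and 604 to 653 CPM with AC1903. Of the 5 lymphocyte markers tested, CD79A and CD79B were at 0 in at least 1 library, and the sums were 15.5 and 18.6 CPM for WT, 10.6 and 11.7 CPM for vehicle, and 23.0 and 27.7 CPM with AC1903. Age differed between the same libraries as well, and neither its part nor that of cell makeup in the differences within a group was tested.

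**Figure D5:**
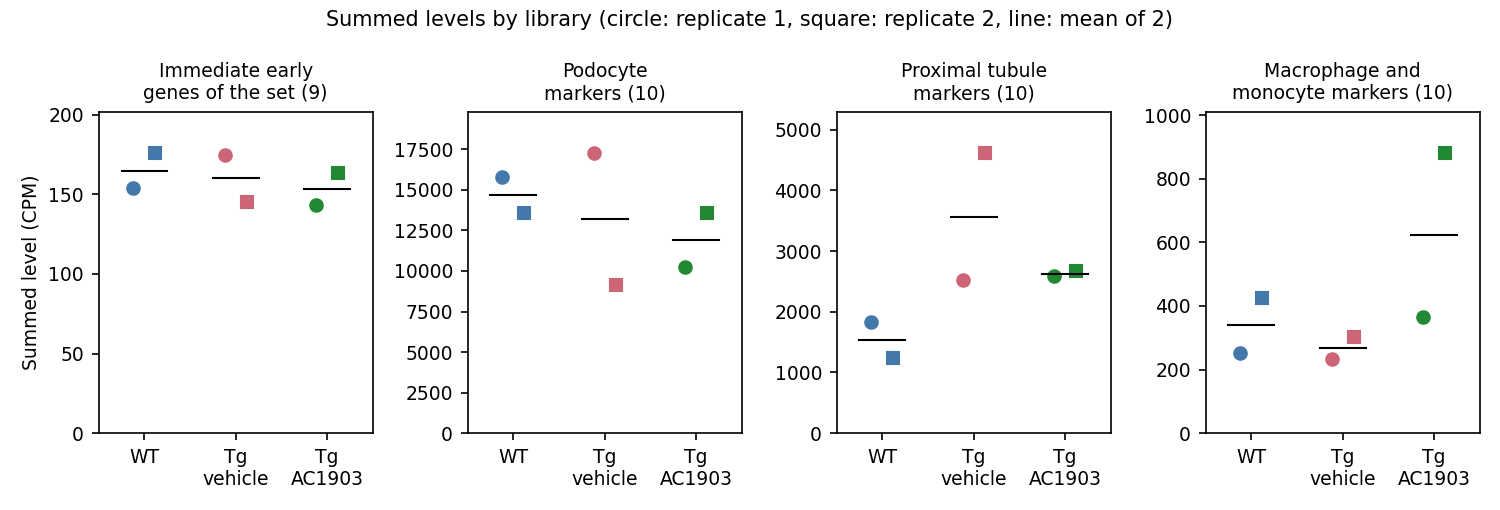
Summed level in CPM (vertical axes from 0) of the 9 immediate early genes and of 3 marker lists in each library, with a circle for replicate 1, a square for replicate 2 and a line at the mean of both. The sum of the 9 genes stays between 143 and 176 CPM, while podocyte, proximal tubule and macrophage markers differ by larger factors between libraries. LYZ alone gives 215 and 661 CPM of the macrophage sums of 366 and 879 CPM with AC1903. JUN, JUNB and EGR1 make up most of the sum of the 9, so it hides the differences of FOS and FOSB, which reach at most 7.25 and 4.32 CPM.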

How the data were processed

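RNA from glomeruli was made into libraries with a stranded mRNA kit, per the labels' protocols. The authors deposited expected counts per Ensembl gene, and STAR 2.5.2b, RSEM 1.3.0 and the build Rnor_5.0 are named in the submitters' processing notes. The authors also deposited log2 fold changes and adjusted p-values for 2 comparisons, per the file headers, by a tool not given in the sources used here.

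Counts were rounded, filtered with filterByExpr, normalised by TMM (trimmed mean of M values) and tested with edgeR 4.0.16 (R 4.3.3; quasi-likelihood, two-sided, all 6 libraries, 3 residual degrees of freedom), with DESeq2 1.42.0 and limma-voom (limma 3.58.1) as alternatives. Log2 ratios between libraries used a prior count of 2. Counting intervals are exact binomial and cover counting error only. The libraries of a group differed by chi-square per degree of freedom of 19.9 to 98.7, so none was a duplicate. Scripts were tested on simulated data.

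The members and lists were chosen with earlier results of these data known. All members are named, and of the other lists up to 4 genes, or 8 for immediate early and heat shock genes, of smallest p with a mean of at least 1 CPM; part of these is given. The 5 nearest profiles were taken for likeness. The comparison with genes in the members' range of level was added after seeing the data. RefSeq tables on GRCr8 gave the sequences and neighbouring genes.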

Additional observations from a re-analysis of the deposited data

How the results depend on the processing

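The count of members called stayed at 0 in all 3 comparisons under every alternative run, without each library in turn included, and the lowest adjusted p of any member over 456 recomputed changes was 0.183. FOSB was not tested under the filter of 5 CPM. Depth limits FOS, FOSB and MYC most. The count of all genes called was 10, 0 and 5 in vehicle against WT, AC1903 against vehicle and AC1903 against WT. It was 554, 67 and 181 with DESeq2, 774, 114 and 464 with no filter, and 4, 1 and 5 with age as a covariate. It was 4, 0 and 3 with proximal tubule markers as a covariate, and 4, 0 and 21 from the 2 groups alone. Without 1 library it ran from 1 to 530 (530 without vehicle replicate 1), from 0 to 4 and from 1 to 25. The numbers 1 and 2 pair no rats by the labels. Across genes, the differences of replicate 2 from replicate 1 correlated between groups at -0.041 to 0.0046. With the replicate number as a term in the fit (replicate block) there were 4, 2 and 7 calls and 0 members. The counts of members over 2-fold apart within a group stayed the same under each scaling and prior count tried.

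Of the 456 recomputed member changes 35 had the opposite sign, none past the threshold, and the cause was not tested. For JUND in AC1903 against vehicle the value was 0.010 with limma-voom, 0.0079 with upper-quartile scaling and 0.0080 with the replicate block, and for JUNB in AC1903 against WT 0.00029 under the filter of 5 CPM. With age as a covariate ATF3 gave 0.40 in vehicle against WT and EGR1 0.32 in AC1903 against vehicle. Proximal tubule markers summed higher in all transgenic libraries than in WT, so a fit with them as a covariate largely adjusts for genotype too. With proximal tubule markers as a covariate, vehicle against WT gave JUNB 0.37, ATF3 1.65, IER2 0.17, MYC -0.58 and NR4A1 0.47, and AC1903 against WT gave FOSB 0.14, JUNB 0.38, ATF3 0.97, IER2 0.24, IER3 0.22 and ARC 0.029. Leaving out 1 library, vehicle against WT ran from -0.38 to 0.016 for JUNB, -0.92 to 0.39 for ATF3, -0.27 to 0.87 for FOSB and -0.19 to 0.41 for MYC. AC1903 against vehicle ran from -0.13 to 0.97 for FOS, -1.11 to 0.035 for FOSB, -0.11 to 0.36 for JUNB, -0.28 to 0.32 for JUND, -0.95 to 0.27 for EGR1, -0.75 to 0.56 for ATF3 and -1.28 to 0.10 for MYC. AC1903 against WT ran from -0.64 to 0.075 for FOSB, -0.0035 to 0.13 for JUN, -0.28 to 0.19 for JUNB, -0.69 to 0.080 for ATF3, -0.40 to 0.21 for IER2 and -1.11 to 0.27 for MYC.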
